A study of Mus musculus with 36 samples.

Results

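The miR-30 family of mouse microRNAs was examined in epithelial cells sorted from the small intestine. Its members were taken as the entries of the deposited small RNA table named miR-30a, b, c, d or e, without an offset in their start position and with a normalized value of 10 or more in at least 2 libraries. All 12 family rows without an offset passed, of 1057 entries kept by the same minimum. They are the 5p and 3p arms of 6 hairpins: miR-30a, miR-30b, miR-30c-1, miR-30c-2, miR-30d and miR-30e.

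The study profiled small RNA in sorted populations of the mouse small intestine (strain C57BL6/2J, total RNA, no treatment or genotype named, no age given for these libraries). Values were used for 31 libraries from 8 populations. There were 4 libraries each of Sox9 Negative, Sox9 Low, Sox9 High, CD24Low and goblet cells, 6 of Paneth cells, 3 of tuft cells and 2 of Lgr5 High cells. The 3 Progenitor libraries were not analysed here. The labels give neither the gates nor how Sox9 or Lgr5 was read in the sort, and whether the libraries of a population are separate animals is not said, so every p-value reflects the spread among these samples, which may be technical. In the Sox9 fractions, sample number 3 carries the letters HFD in its labels where the other numbers carry chow, and what these letters stand for is not stated. Single cells from 12-month-old wild-type mice, in 2 libraries, gave the mRNA of a host gene.

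MicroRNAs are short RNAs cut from a hairpin; one arm of the hairpin is loaded into an Argonaute protein and guides it to messenger RNAs, mostly through pairing of the seed, bases 2 to 8, with a site in the target's 3′ untranslated region. The miR-30 5p arms share one seed and are therefore predicted to reach overlapping targets. In intestinal epithelial cells the family is known as a regulator of proliferation and differentiation, with SOX9 and ubiquitin ligase genes among its described targets. SOX9 is a transcription factor of the crypt, found in stem, progenitor, Paneth and tuft cells.

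The mature sequences are shown because arms that differ by a single base had different patterns over the populations. They are from RefSeq (GRCm38.p6), written 5′ to 3′ with the seed in capitals. They cover 4 of the 6 hairpins, without miR-30b and miR-30d, and hold 3 seeds. The 5p arms shown carry the seed GUAAACA:
miR-30a-5p: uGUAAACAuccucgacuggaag
miR-30e-5p: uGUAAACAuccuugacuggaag
miR-30c-5p: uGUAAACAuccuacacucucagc
The 3p arms of miR-30a and miR-30e carry the seed UUUCAGU, and those of the miR-30c hairpins carry UGGGAGA:
miR-30a-3p: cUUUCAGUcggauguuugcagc
miR-30e-3p: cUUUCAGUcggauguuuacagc
miR-30c-1-3p: cUGGGAGAggguuguuuacucc
miR-30c-2-3p: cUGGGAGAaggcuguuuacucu
Counting from 1 at the 5′ end, miR-30a-5p and miR-30e-5p differ by C13U alone, and miR-30a-3p and miR-30e-3p by G18A alone. How reads with a mismatch at such a base were assigned is not given in the sources used here. Over 22 compared bases, miR-30c-5p differs from miR-30a-5p at 5 positions outside the seed (C13A, G14C, G18C, G19U and A20C). The 3p arms of miR-30c-1 and miR-30c-2 differ by G9A, U12C and C22U. The miR-30c-5p sequence is identical from both of its loci, and its rows differed in 4 libraries by at most 12 reads, so these rows are copies of one measurement and are given once below as miR-30c-5p.

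In GRCm38 coordinates, the miR-30e hairpin (chr4:120772606-120772697) and the miR-30c-1 hairpin (chr4:120769534-120769622) lie on the minus strand 2983 bases apart. Both are inside the protein-coding gene Nfyc, outside its annotated exons. The miR-30a hairpin (chr1:23272269-23272339, plus strand) overlaps no other annotated gene, and the miR-30c-2 hairpin (chr1:23291701-23291784, plus strand) lies in an exon of the long noncoding RNA Gm27028, with 19361 bases between them.

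Depth differed widely between the libraries, from 475678 reads in a tuft library to 30958439 in a CD24Low library, and no entry is listed below 10 reads. In the shallowest library 10 reads were worth a normalized value of 68.9, so a member listed at 0 may have held up to 9 reads. Of microRNAs known as markers of other tissues, 6 leukocyte entries summed to at most 216 outside Paneth cells and to 2018 in 1 Paneth library. The 14 stromal and muscle entries, all 14 listed in CD24Low, summed to 846 to 2740 there and to at most 1060 elsewhere, and their part in the results below was not tested. A list of 8 known intestinal epithelial microRNAs took 70.1% to 71.4% of the summed value in the Sox9 Negative libraries and 13.1% to 61.3% in the others. For this reason each called difference of level is given on the deposited scale and again after setting every library to the same total. In bulk libraries, fewer cells of a type and less RNA per cell cannot be told apart.

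The 5p arms made up nearly all of the family. Summed over the 5 distinct 5p sequences, the family had a normalized value between 30035 and 81573 in every library. By population it averaged 65268 ± 6262 (SD, n = 4) in Sox9 Low, 64245 ± 19001 (n = 4) in Sox9 Negative and 56666 ± 4803 (n = 4) in Sox9 High cells. It averaged 51976 ± 11984 (n = 6) in Paneth, 47114 ± 6004 (n = 4) in CD24Low, 43545 ± 2425 (n = 2) in Lgr5 High, 37563 ± 3301 (n = 4) in goblet and 36510 ± 6544 (n = 3) in tuft cells. As a share of all small RNA value in the library the order changed: the family took 2.07% in Sox9 Low, 2.05% in Paneth and 1.91% in Sox9 High cells, but 0.983% in Sox9 Negative and 0.757% in goblet cells. The Sox9 Negative population was thus near the top by deposited value and next to the bottom by share.

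**Figure D1:**
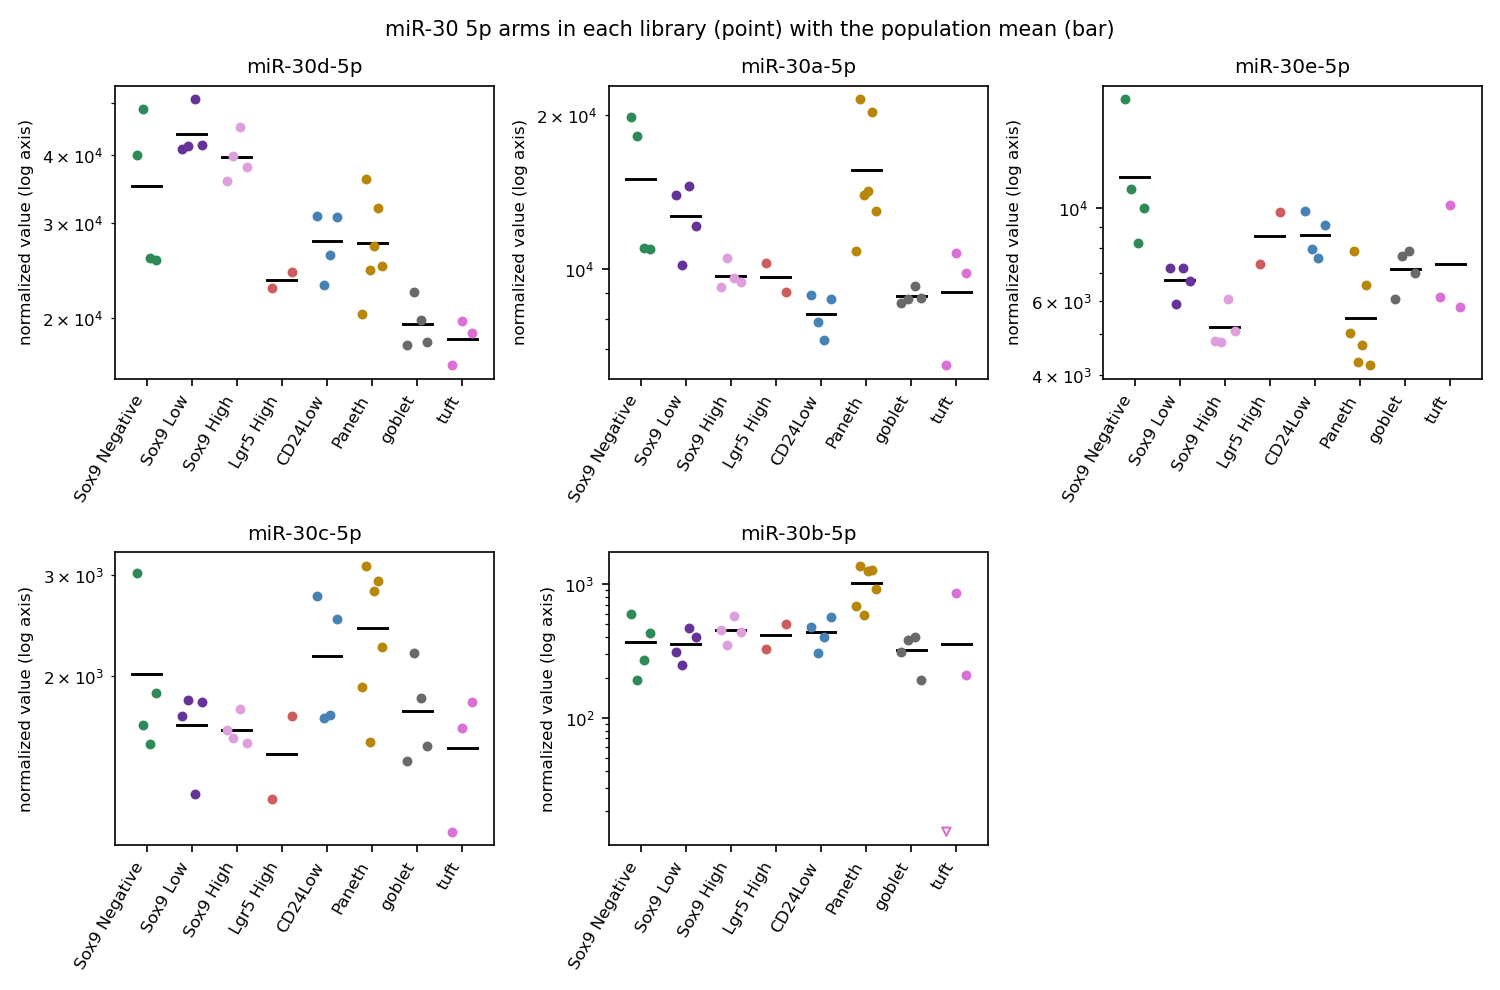
Normalized value (log axis) of the 5 distinct miR-30 5p arms in each of the 31 libraries (points), by population, with the population mean (bar). An open triangle marks the tuft library listed at 0. The mean of miR-30b-5p is highest in Paneth cells (1014), and that of miR-30d-5p is lowest in tuft (18279) and goblet cells (19504).

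miR-30d-5p was the most abundant arm in every population. Levels of different arms are compared as reads, since the arms have nearly one length, but how well each sequence is ligated into a library was not measured. The values of miR-30d-5p were 41148, 41568, 41836 and 50778 in Sox9 Low, and 35856, 37984, 39842 and 45189 in Sox9 High cells. They were 17820.2, 18046, 19793 and 22358 in goblet, and 16331, 18757 and 19749 in tuft cells. All 8 Sox9 Low and Sox9 High libraries lay above all 7 goblet and tuft libraries. By their deposited means, Sox9 Negative (25563 to 48681), Paneth (20283 to 36096, median 26036), CD24Low (23041 to 30812) and Lgr5 High cells (22659 and 24260.2) lay in between. These 4 overlapped one another, except that both Lgr5 High libraries were below every Sox9 Negative library. With libraries set to one total, the log2 difference from the other populations was -0.61 in Sox9 Negative cells, lower than in tuft cells (-0.45).

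miR-30a-5p, the next most abundant arm in most populations, was highest in Paneth and Sox9 Negative cells on the deposited scale. It ran from 10831 to 21428 (median 14075) in the 6 Paneth libraries and was 10930.0, 11002, 18152 and 19794 in Sox9 Negative cells. It was 7269.8, 7878, 8736 and 8892 in CD24Low, and 8585, 8759, 8801 and 9253 in goblet cells. Every Paneth and Sox9 Negative value was above every CD24Low and goblet value on this scale. Sox9 Low (12694 ± 1954, n = 4), Sox9 High (9694 ± 554, n = 4), Lgr5 High (9667 ± 891, n = 2) and tuft cells (9022 ± 2235, n = 3) lay between. With libraries set to one total, Paneth cells were above the other populations (log2 difference 1.19), but Sox9 Negative cells were below them (-0.42).

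miR-30e-5p, which differs from miR-30a-5p at a single base, had another order. On the deposited scale it was 8242, 9965, 11112 and 18145 in Sox9 Negative cells. In Sox9 High cells it was 4796, 4821, 5074 and 6052, with no overlap. With libraries set to one total, the log2 difference of Sox9 High from Sox9 Negative cells was -0.04, so this separation depends on the scaling. In Paneth cells it ran from 4211 to 7894 (median 4860), overlapping Sox9 High. The means in between were 8625 ± 1031 (n = 4) in CD24Low, 8543 ± 1722 (n = 2) in Lgr5 High, 7352 ± 2411 (n = 3) in tuft, 7149 ± 837 (n = 4) in goblet and 6742 ± 613 (n = 4) in Sox9 Low cells, and neighbours in that order overlapped.

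miR-30c-5p and miR-30b-5p were the minor 5p arms. On the deposited scale, miR-30c-5p had the narrowest span of population means in the family. It ran from 1461 ± 340 (n = 2) in Lgr5 High to 2424 ± 627 (n = 6) in Paneth cells. With libraries set to one total, its log2 difference from the other populations ran from -0.76 (Sox9 Negative) to 1.08 (Paneth). That of miR-30e-5p then ran from -0.55 (goblet) to 0.37 (CD24Low), so which arm was narrowest depends on the scaling. miR-30b-5p ran from 590 to 1375 (median 1082) in the 6 Paneth libraries, against 191 to 600 in the Sox9 Negative, 247 to 470 in the Sox9 Low and 352 to 579 in the Sox9 High libraries. It was 190, 309, 384 and 400 in goblet, 306 to 565 in CD24Low, and 329 and 500 in Lgr5 High cells. Paneth values overlapped these only in the lowest Paneth and the highest Sox9 Negative library. The 3 tuft libraries gave 861, 208 and a listing at 0, so no order can be read for tuft cells.

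Across the 8 populations, on the deposited scale, the abundant members had narrower spans than the median abundant entry. On the log2 scale with values under 100 raised to 100, which is the scale of the tests below, the population means of miR-30c-5p spanned 0.71, of miR-30a-5p 0.89, of miR-30e-5p 1.14 and of miR-30d-5p 1.26. Among the 88 entries without an offset and with a mean of 1000 or more, the median span was 2.51. For the 6 family rows among them, which hold both copies of miR-30c-5p, it was 1.01. With miR-30c-5p counted once, the middle span was that of miR-30e-5p (1.14). Of the members, miR-30b-3p (3.30) and miR-30e-3p (2.18) had the widest spans. Over all 473 entries tested the median span was 1.88, against 1.26 for the 11 member rows tested, both copies included. Spans were not computed with libraries set to one total. On that scale the log2 difference of miR-30a-5p from the other populations was 1.19 in Paneth and -0.82 in goblet cells. Whether the abundant members have narrow spans there was not tested.

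The make-up of the family differed between populations. miR-30d-5p gave 70.0% of the 5p sum in Sox9 High and 67.1% in Sox9 Low cells, but 50.6% to 58.7% in the other 6 populations. miR-30a-5p gave 29.8% in Paneth cells, its highest share, and 17.2% in Sox9 High cells, its lowest. miR-30e-5p gave 18.3% to 19.9% in Sox9 Negative, Lgr5 High, CD24Low, goblet and tuft cells, but 10.5% in Paneth, 10.3% in Sox9 Low and 9.14% in Sox9 High cells. By these means the populations fell into those with much and those with little miR-30e-5p for their miR-30d-5p. The split did not hold for every library. The log2 ratio of these arms in Sox9 Negative library 2 (-2.13) lay within the Paneth range (-2.56 to -2.02). miR-30c-5p gave 2.56% to 4.67% and miR-30b-5p 0.542% to 1.93%, both highest in Paneth cells.

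**Figure D2:**
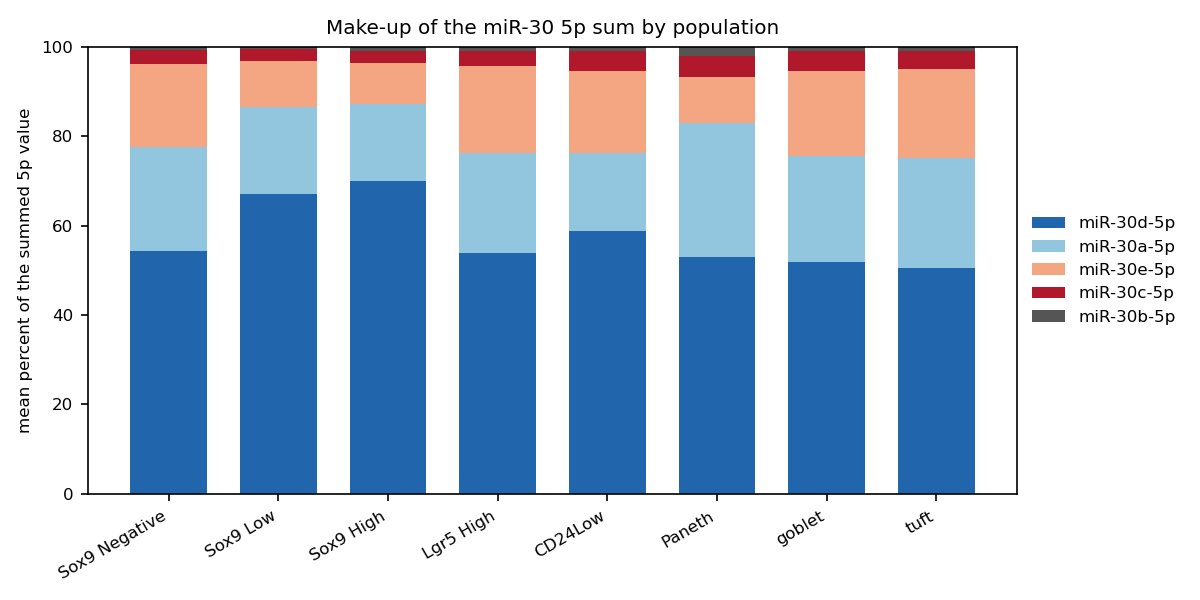
Mean percent of the summed miR-30 5p value (y axis, from 0 to 100) given by each of the 5 distinct 5p arms in each population. miR-30d-5p gives between 50.6% and 70.0%, and miR-30e-5p between 9.14% and 19.9%.

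These differences were tested as ratios to miR-30d-5p within each library, which do not depend on how libraries are scaled. Each of the 4 ratios was compared for all 15 pairs of the 6 populations with at least 4 libraries, 60 comparisons in all, by a two-sided exact permutation test of the mean log2 ratio with Benjamini-Hochberg adjustment over the 60. With 4 libraries against 4 the smallest p is 0.0286, and with 4 against 6 it is 0.00952. Of the 60, 39 had an adjusted p under 0.05: 12 of 15 for miR-30a-5p, 12 of 15 for miR-30e-5p, 8 of 15 for miR-30b-5p and 7 of 15 for miR-30c-5p. Leaving out 1 library of a population of 4 took the count of 39 down to between 0 and 13, since 3 libraries against 4 cannot give a p under 0.0571. Leaving out 1 Paneth library left 37 to 40. Populations with fewer libraries were not tested. The 4 ratios share miR-30d-5p, so a change in this arm alone can enter all 4. Ratios between other microRNAs were not tested. The count of 39 therefore has no background share beside it and is not read as particular to the family.

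The log2 ratio of miR-30e-5p to miR-30d-5p was -1.14, -1.36, -1.65 and -2.13 in Sox9 Negative cells. It was -2.52, -2.64, -2.82 and -2.82 in Sox9 Low, and -2.89, -2.90, -2.90 and -3.05 in Sox9 High cells. The 3 Sox9 fractions did not overlap and were ordered from Negative to High. The mean difference was 1.13 between Negative and Low, 1.37 between Negative and High and 0.24 between Low and High cells (exact permutation test, adjusted p = 0.044 for each, n = 4 per fraction). Sox9 High and Low samples of one number deviated together over all entries and are taken as pairs. Within the 4 pairs the Low sample was the higher one each time, by 0.38, 0.24, 0.08 and 0.26. An exact permutation test within pairs gave p = 0.125, the smallest that 4 pairs allow. The difference between Low and High cells is thus not called when the pairing is kept. Sox9 Negative samples share these numbers but did not all deviate with the others, and were compared without pairing. If they were paired by number, their differences could not be called either, since 4 pairs cannot give p under 0.125. By the lane codes in the column names, no Sox9 Negative library shared a lane with another fraction, so lane and fraction cannot be told apart there. Sox9 High library 3 has the lane code of the 4 Sox9 Low libraries, and its ratio of -2.90 lay among those of the other Sox9 High libraries.

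Goblet and Paneth cells, both secretory cells, also differed in this ratio. It was -1.32, -1.37, -1.54 and -1.56 in the 4 goblet libraries and ran from -2.56 to -2.02 (median -2.40) in the 6 Paneth libraries, a difference of 0.90 (exact permutation test, adjusted p = 0.0381). The 2 Paneth libraries whose column names have the same form as those of the goblet libraries were at -2.29 and -2.56, also below all goblet values. CD24Low cells lay near goblet cells, from -1.78 to -1.53, and the tuft (-1.69, -1.41 and -0.96) and Lgr5 High libraries (-1.63 and -1.31) covered the same range.

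The ratio of miR-30a-5p to miR-30d-5p set Paneth cells at the top. It ran from -0.94 to -0.66 (median -0.86) in Paneth, from -1.35 to -1.04 in goblet and from -1.84 to -1.55 in CD24Low cells. The Paneth libraries lay above all libraries of the other 5 populations tested, by 0.30 over goblet, 0.39 over Sox9 Negative, 0.92 over CD24Low, 0.96 over Sox9 Low and 1.20 over Sox9 High cells (exact permutation tests, adjusted p = 0.0381 for each). In the populations that were not tested, it was -1.33, -0.88 and -0.94 in tuft and -1.14 and -1.42 in Lgr5 High cells, so 2 tuft libraries lay within the Paneth range. Among the 6 populations tested Paneth cells had the most miR-30a-5p for their miR-30d-5p. Their miR-30e-5p was lower for their miR-30d-5p than in goblet and CD24Low cells. It was also lower on average than in Sox9 Negative cells, where library 2 overlapped the Paneth range. In CD24Low cells the order of the arms was turned around: the miR-30a-5p ratio averaged -1.75 and the miR-30e-5p ratio -1.68.

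**Figure D3:**
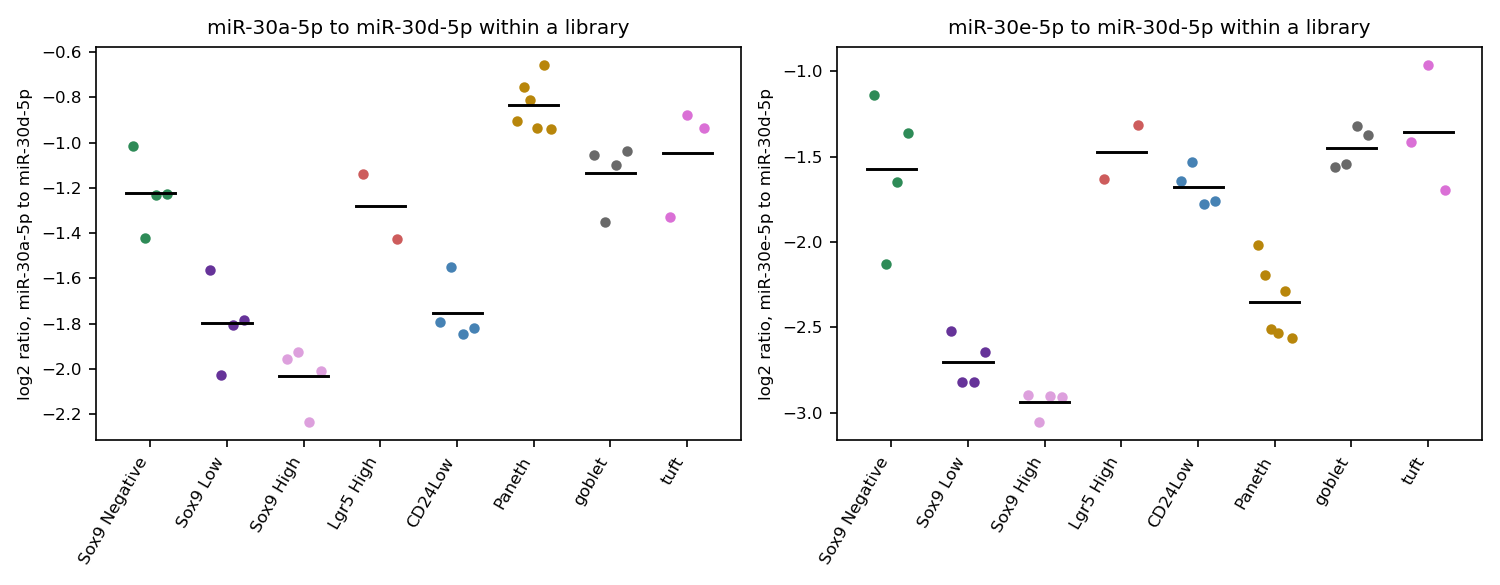
Log2 ratio of miR-30a-5p (left) and miR-30e-5p (right) to miR-30d-5p within each library (points), by population, with the population mean (bar). Paneth libraries are at the top on the left (-0.94 to -0.66), together with 2 of the 3 tuft libraries (-0.94 and -0.88), and in the lower range on the right (-2.56 to -2.02), and Sox9 High libraries are lowest on the right (-3.05 to -2.89).

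For miR-30b-5p the log2 ratio averaged -4.81 ± 0.31 (n = 6) in Paneth cells and -5.98 ± 0.41 (n = 4) in goblet cells, a difference of 1.17 (exact permutation test, adjusted p = 0.0381). Paneth cells were also above the other 4 populations tested, by 1.20 to 2.17. For miR-30c-5p, Paneth (-3.52 ± 0.25, n = 6) and goblet cells (-3.50 ± 0.13, n = 4) differed by 0.02, within the spread of either, and both were above Sox9 Low (-4.75 ± 0.40, n = 4) and Sox9 High cells (-4.62 ± 0.10, n = 4).

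Single arms were then compared between populations with limma on all 473 entries with a value of at least 100 in 2 libraries, among them 11 member rows. A member was called when its adjusted p was under 0.05 and its difference was at least 2-fold. Each population was set against the mean of the other 7, and 6 pairs were compared. In all, 17 values of members passed, and most were 3p arms.

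**Figure D4:**
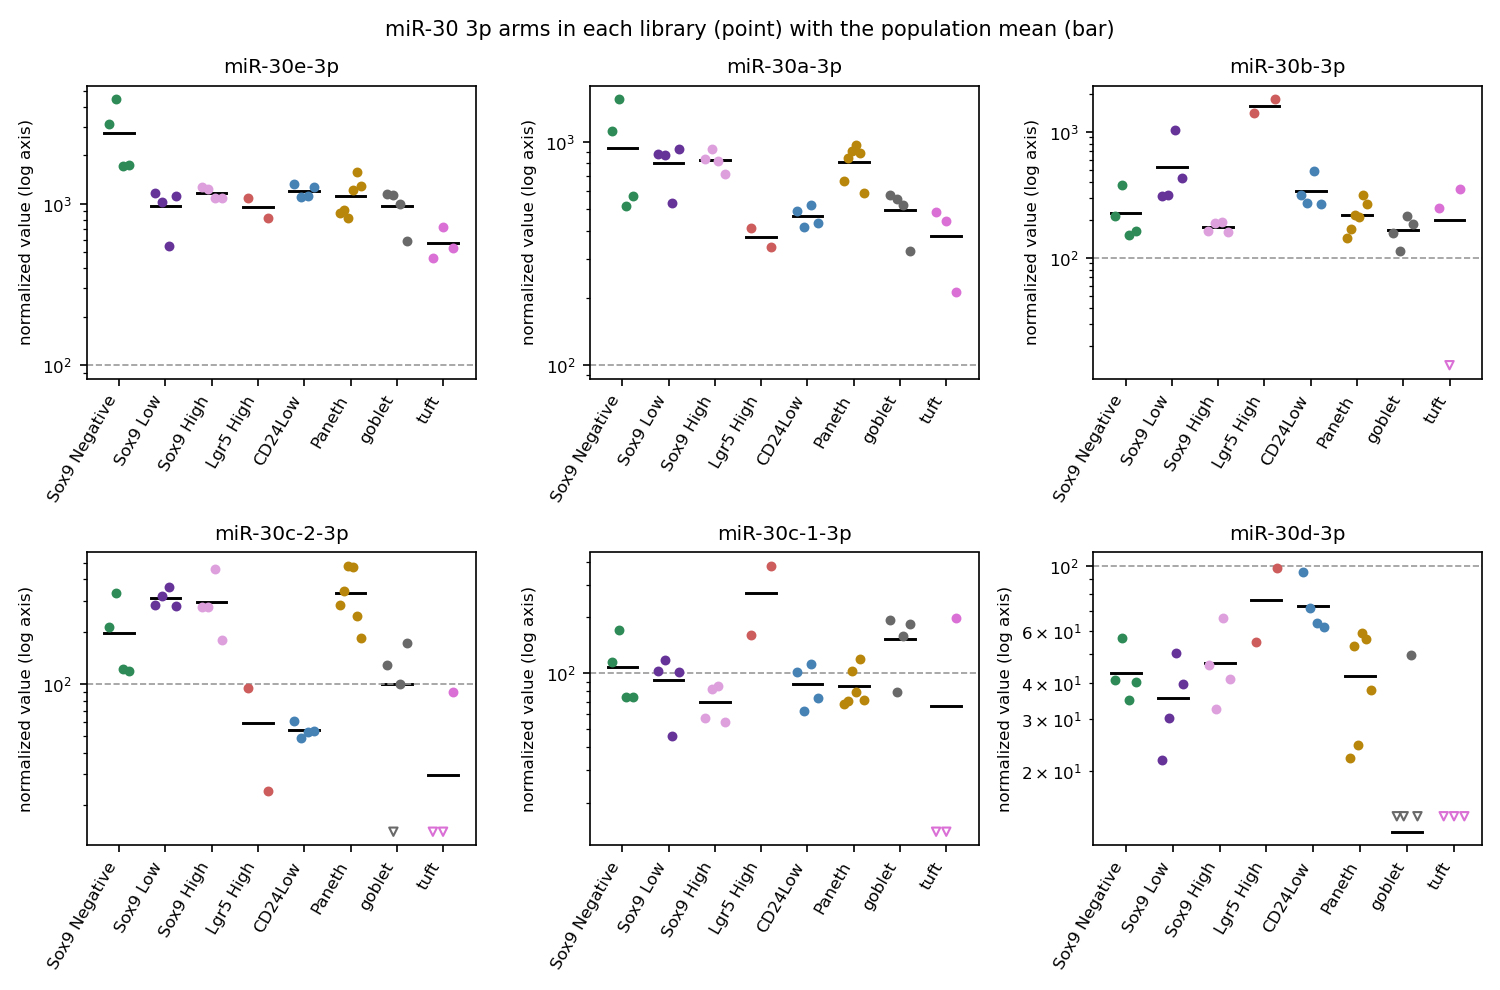
Normalized value (log axis) of the 6 miR-30 3p arms in each of the 31 libraries (points), by population, with the population mean (bar). The dashed line is the value of 100 to which lower values were raised in the tests, and open triangles mark libraries listed at 0. miR-30b-3p stands highest in the 2 Lgr5 High libraries and miR-30e-3p in the 4 Sox9 Negative libraries.

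On the deposited scale, Sox9 Negative cells were marked within the family by miR-30e-3p, the arm opposite miR-30e-5p. Its value was 1712, 1736, 3128 and 4454 in these cells, and every library of the other 7 populations was lower, from 460 to 1569. Against the other populations the log2 difference was 1.42 (SE 0.22, limma, adjusted p = 5.78e-06), the only call among 11 member rows, where 27.5% of all entries were called. With libraries set to one total, the difference was 0.49 (limma, adjusted p = 0.0445), under 2-fold. The same difference was then larger in Paneth cells (0.62) and nearly as large in Sox9 High cells (0.47). Sox9 Negative cells were thus not marked by miR-30e-3p on that scale. On that scale 2 other members were called, both lower in Sox9 Negative cells, miR-30b-3p at -1.50 and miR-30b-5p at -1.13, where 28.4% of entries were called. In all, 4 members passed the adjusted p at any size, where 46.5% of entries did. The other 3, under 2-fold, were miR-30e-5p (0.74), miR-30a-3p (0.62) and miR-30a-5p (0.50), and each turned negative with one total (-0.19, -0.31 and -0.42). The direction of these 3 arms therefore depends on the scaling, whereas the ratios above do not.

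Sox9 High against Sox9 Negative cells gave 2 calls, in a comparison where 33.2% of all entries were called. miR-30e-5p was lower by a log2 difference of -1.14 (SE 0.22, limma, adjusted p = 0.000112) and miR-30e-3p by -1.12 (SE 0.29, adjusted p = 0.0025). With libraries set to one total these differences were -0.04 and -0.02, both with an adjusted p of 1, and 4 other members were called higher instead, where 36.1% of entries were called. These were miR-30c-2-3p (1.66), miR-30b-5p (1.44), miR-30d-5p (1.33) and miR-30a-3p (1.06). Both arms of the miR-30e hairpin thus gave nearly the same difference on either scale.

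Sox9 Low against Sox9 Negative cells also gave 2 calls (29.2% of all entries were called). miR-30e-3p was lower by -1.45 (SE 0.29, limma, adjusted p = 0.000182), or by -0.44 with one total (adjusted p = 0.217). miR-30b-3p was higher by 1.11 (SE 0.39, limma, adjusted p = 0.0223), with values of 309, 312, 432 and 1038 in Sox9 Low against 152, 164, 213 and 377 in Sox9 Negative cells. With one total this difference was 2.12, and miR-30c-2-3p (1.71) and miR-30d-5p (1.39) were called higher as well, where 30.6% of entries were called. The 1038 belongs to sample number 3, whose labels hold HFD. Without that number in the 3 fractions, 1 call was left on the deposited scale, miR-30e-3p.

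Sox9 High against Sox9 Low cells gave 1 call, miR-30b-3p at -1.38 (SE 0.39, limma, adjusted p = 0.0118), where 10.6% of all entries were called. Its values in Sox9 High cells were 159, 163, 189 and 193, below all 4 Sox9 Low values, and the difference was -1.29 with one total. Without sample number 3, or without the Sox9 Low library of that number alone, no member was called. In Sox9 Low cells against the other populations, miR-30c-2-3p was called higher at 1.02 (SE 0.24, limma, adjusted p = 0.00115), 1 call where 19.2% of entries were called, and at 1.25 with one total. Leaving out Sox9 Negative library 3 or 4, Sox9 Low library 3 or Sox9 High library 4 took it under 2-fold. In Sox9 High cells against the others limma called no member (20.3% of entries). There 5 members had an adjusted p under 0.05 at less than 2-fold, where 42.5% of entries had one at any size, and 6 had an unadjusted p under 0.05. With edgeR 1 member was called under either scaling, miR-30c-2-3p, as it was without Sox9 High library 4 and with one total (1.19, where 25.4% of entries were called).

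Lgr5 High cells, a gate used for crypt stem cells, carried the largest difference of any member. miR-30b-3p was 1408 and 1807 there, against 1038 in Sox9 Low library 3, 113 to 491 in 27 other libraries and a listing at 0 in 1 tuft library. The log2 difference from the other populations was 2.77 (SE 0.40, limma, adjusted p = 3.07e-06), and it was 2.70 with one total. miR-30c-1-3p was the other call, 1.11 (SE 0.23, limma, adjusted p = 0.000457), from values of 160 and 380, and it was 1.08 with one total. Here 24.7% of all entries were called. For miR-30c-1-3p, the 160 of Lgr5 High library 1 lay within the goblet range (79.4 to 195). It was also below tuft library 4 (200) and Sox9 Negative library 2 (170). The 380 of Lgr5 High library 2 was above every library of the other populations. miR-30c-1-3p rested on the higher library: without Lgr5 High library 2 it was 0.48 and not called.

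Against CD24Low cells, Lgr5 High cells gave calls for the same 2 members, miR-30b-3p at 2.29 (SE 0.47, limma, adjusted p = 0.000671) and miR-30c-1-3p at 1.26 (SE 0.28, adjusted p = 0.00118), where 19.0% of entries were called. With one total they were 2.16 and 1.20. Leaving out Lgr5 High library 2 left 1 call. These 2 comparisons share the Lgr5 High libraries. In CD24Low cells against the other populations neither limma nor edgeR called a member (17.1% of entries called by limma). There 2 members, miR-30c-2-3p (-0.84) and miR-30a-5p (-0.44), had an adjusted p under 0.05, where 37.4% of entries did, and the same number had an unadjusted p under 0.05. Without the floor 1 member was called, miR-30d-3p.

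Paneth cells had calls for miR-30b-5p and miR-30c-2-3p. miR-30b-5p was higher than in the other populations by 1.43 (SE 0.29, limma, adjusted p = 0.000248) and by 2.04 with one total. miR-30c-2-3p ran from 183 to 480 (median 314) in Paneth cells, against 281 to 363 in Sox9 Low, 180 to 457 in Sox9 High and 118 to 333 in Sox9 Negative cells, all overlapping. It was lower in CD24Low (48.6 to 61.1) and in Lgr5 High cells (mean 59.4), so Paneth cells shared the higher level with the Sox9 fractions. Its difference from the mean of the others was 1.05 (SE 0.20, limma, adjusted p = 0.000128), and 1.65 with one total. In this comparison 15.0% of entries were called. Counting miR-30c-5p once, 6 of 10 arms had an adjusted p under 0.05, 5 higher and 1 lower, where 41.4% of entries did. The lower one was miR-30e-5p at -0.52 (limma, adjusted p = 0.00396), which was 0.08 with one total. With one total 5 of the 10 arms were called, adding miR-30a-5p (1.19), miR-30a-3p (1.13) and miR-30c-5p (1.08), where 22.3% of entries were called. Leaving out Paneth library 3 or 4 took miR-30c-2-3p under 2-fold.

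Against goblet cells, Paneth cells had higher miR-30b-5p by 1.65 (SE 0.42, limma, adjusted p = 0.00205) and higher miR-30c-2-3p by 1.38 (SE 0.29, adjusted p = 0.000291), the 2 calls among 11 member rows where 28.8% of entries were called. With one total these differences were 2.63 and 2.07. miR-30c-2-3p was 99.2, 128 and 171 in 3 goblet libraries and listed at 0 in the fourth. With one total, 8 of 10 arms were called, all higher in Paneth cells, where 38.7% of entries were called and the median of all entries was 0.17. Using only the 2 Paneth libraries with the same form of column name as the goblet libraries, miR-30b-5p was called at 1.81 (limma, adjusted p = 0.0201) and miR-30c-2-3p was not called.

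In goblet cells 1 member was called lower than in the other populations, miR-30b-3p, with values of 113, 157, 184 and 214 (25.8% of entries called). Its log2 difference of -1.0005 (SE 0.29, limma, adjusted p = 0.0065) lies at the 2-fold limit, and was under it in 13 of 31 fits that each left out 1 library. With one total it was -1.38. In tuft cells miR-30e-3p was lower, at 460, 536 and 716, by -1.07 (SE 0.25, limma, adjusted p = 0.000943), where 27.3% of entries were called. With one total it was -0.83, under 2-fold. Every tuft value of miR-30e-3p was below every Lgr5 High value, but the tuft values overlapped the lowest goblet and Sox9 Low values. Without tuft library 3, miR-30b-5p was called lower in tuft cells as well. miR-30d-5p was also lower in both, by -0.59 in goblet (limma, adjusted p = 0.000936) and -0.70 in tuft cells (adjusted p = 0.000682), at under 2-fold. With one total it was -1.11 in goblet cells, called where 31.8% of entries were, and -0.45 in tuft cells, so which of these populations was further from the others depends on the scaling. Goblet against tuft cells gave no member called by limma (29.2% of entries), and 0 of 11 had an adjusted p under 0.05 at any size, where 37.2% of entries did. Only 1 of 11 had an unadjusted p under 0.05, and edgeR called 1 with TMM, miR-30e-3p, and 0 with DESeq2 size factors.

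**Figure D5:**
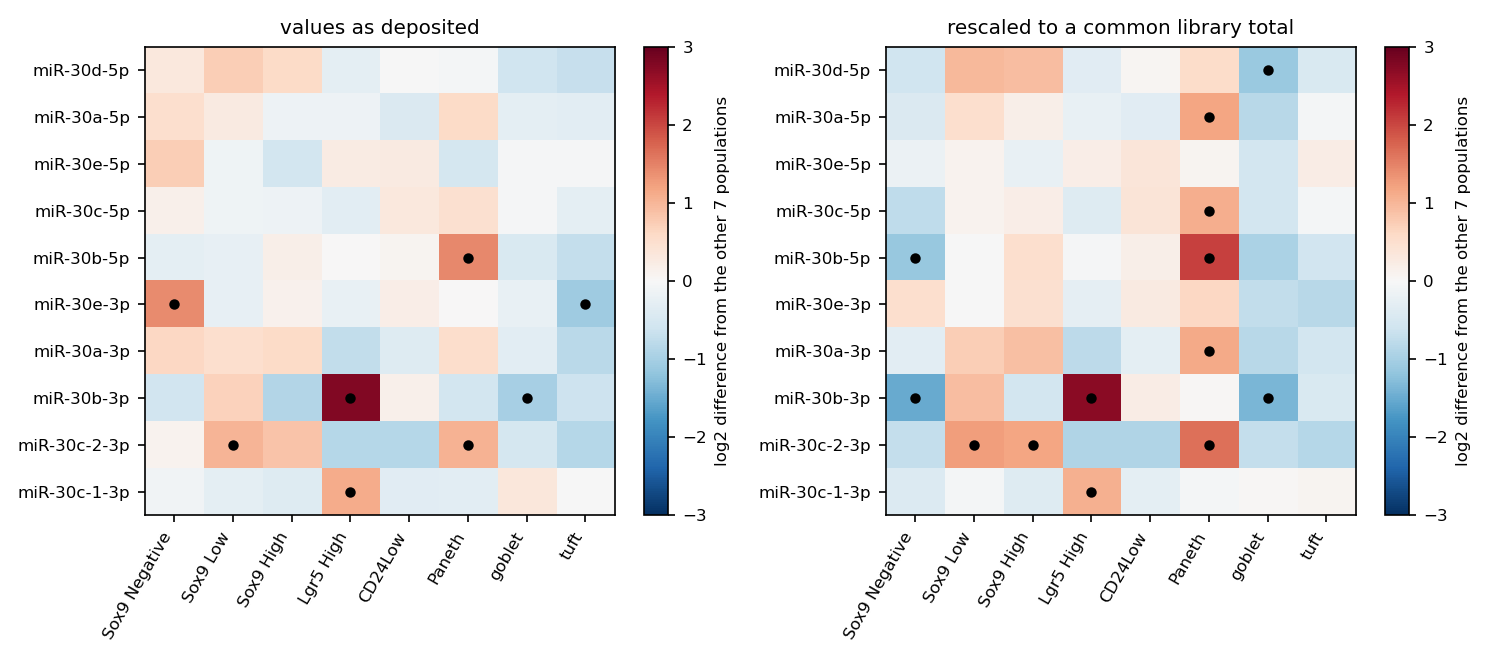
Log2 difference of each of 10 distinct miR-30 arms (rows) in each population (columns) from the mean of the other 7, on the deposited scale (left) and with libraries set to one total (right). Red is higher, blue is lower, and dots mark an adjusted p under 0.05 with at least 2-fold. miR-30b-3p in Lgr5 High and miR-30b-5p in Paneth cells are marked on both sides, whereas miR-30e-3p in Sox9 Negative cells is marked only on the left.

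miR-30d-3p never reached 100 and was not tested. It was 54.9 and 98 in the Lgr5 High libraries, and CD24Low cells had 61.7 to 95.3. The Sox9 fractions and Paneth cells had 21.8 to 66.1. It was 49.6 in 1 goblet library and listed at 0 in the other goblet and all tuft libraries, where 10 reads are worth up to 68.9. miR-30a-3p averaged 938 ± 487 (n = 4) in Sox9 Negative and 375 ± 51.1 (n = 2) in Lgr5 High cells, and was called in no comparison on the deposited scale. With one total it was called higher in Paneth cells, in Sox9 High against Sox9 Negative cells and in Paneth against goblet cells (1.71). Its population means were above those of miR-30c-1-3p and miR-30c-2-3p in all 8 populations.

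The balance of the hairpin arms differed between members and populations. In the miR-30b hairpin the ratio of 5p to 3p was 0.23 and 0.28 in the Lgr5 High libraries, and ran from 2.70 to 8.22 in the 6 Paneth libraries. The 3p arm was therefore the larger one in Lgr5 High cells and the smaller one in Paneth cells, in every library. In Sox9 Low cells the ratio ran from 0.45 to 1.01 and in Sox9 High cells from 1.86 to 3.01, without overlap. In the miR-30a, miR-30e and miR-30d hairpins the 5p arm was the larger in every population. The mean ratio was 11.8 to 28.0 for miR-30a, 4.47 to 12.8 for miR-30e and 330 to 1332 for miR-30d, where the 3p arm was listed. The miR-30b ratio is a description, since its arms were chosen for their calls.

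Reads that start later than the annotated arm have a shifted seed. Reads of the 5p arms that started 1 base later, which would carry the seed UAAACAU, took 3.58% ± 0.08 (n = 4) of the 5p sum in CD24Low cells. In Lgr5 High cells they took 3.98% ± 0.37 (n = 2). In the other 6 populations the mean was 0.520% to 1.01%. Over all other entries of the table the same share was 4.81% (CD24Low), 5.39% (Lgr5 High) and 2.68% to 4.27% (the rest). These are also the 2 deepest populations, from 13348905 to 30958439 reads per library against at most 9229136 in the others, and the part of depth was not tested. Among 3p arms, 31.2% ± 7.1 (n = 31) of miR-30a-3p started 1 base later, with 37.1% in Paneth, the highest population mean. The 2 Lgr5 High libraries were far apart, at 31.0% and 11.6%.

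Over the 8 population means, the 5 microRNAs outside the family whose pattern was most like the summed 5p value were miR-25-3p (Pearson r = 0.915), miR-106b-3p (0.898), let-7i-5p (0.898), miR-92a-1-3p (0.893) and miR-345-3p (0.881), of 218 entries compared. All 5 were highest in Sox9 Low cells. The points share libraries and scaling, and r is given as a description.

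Nfyc, which holds the miR-30e and miR-30c-1 hairpins, encodes a subunit of the NF-Y transcription factor. In the single cells, with cell types as annotated by the authors and no removal of doublets in this work (how the authors treated them is not given in the sources used here), Paneth cells had the lowest Nfyc level in both libraries, 3.92 CPM (UMI counts scaled to a common total, 95% exact Poisson interval 2.49 to 5.89, counting error only) in the first and 6.09 (4.01 to 8.86) in the second. The other 7 cell types had 13.3 to 27.6 in the first and 16.4 to 36.1 in the second. Paneth cells were also the deepest, with a median of 73555 and 67245 UMIs per cell. There 3 Paneth genes (Lyz1, Defa24 and Mmp7) summed to 345086 CPM in the first library. By the percent of cells with any Nfyc UMI, Paneth cells (23.8%) were not lowest in the first library. Stem cells (ISC) were lower at 19.2%, and all other types were higher. In the second library Paneth cells were lowest (24.3%), but close to ISC. The low level is thus one of CPM, and the part of depth in it was not tested. Sorted Paneth cells had a low miR-30e-5p to miR-30d-5p ratio (-2.35 ± 0.22, n = 6), though it was lower still in Sox9 Low (-2.70) and Sox9 High cells (-2.94). The 3p arm of the same hairpin was not low in sorted Paneth cells. Its log2 difference from the other populations was 0.02 on the deposited scale and 0.62 with one total. For miR-30c-1-3p, from the other hairpin in Nfyc, the difference was -0.05 with one total. The single cells and the sorted libraries are separate samples, and no test joins them.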

How the data were processed

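Small RNA was measured in sorted cells with the TriLink CleanTag kit, per the labels' protocols, and single cells with 10X Genomics Chromium. No source used here names the aligner or counter, and the build is mm9 per the submitters' processing notes. The authors deposited normalized values (unit signal). Each column is reads divided by 1 factor: every value was a whole multiple of 1 step within 0.001 reads. The deposited single-cell matrices hold UMI counts, summed here per annotated cell type, with exact Poisson intervals (scipy 1.17.1) that cover counting error only. The table has 3 columns that match no label and were not used. Library totals ran from 475678 to 30958439 reads.

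The main test was limma 3.58.1 (trend, two-sided) on log2 of the value, with values under 100 raised to 100, in R 4.3.3, over 473 entries with at least 100 in 2 libraries, group means and Benjamini-Hochberg adjustment. Alternatives were log2(value + 1) without the floor, a floor of 200, a common library total, edgeR 4.0.16 on the recovered reads with TMM or DESeq2 1.42.0 size factors, the sample number as a block, fewer libraries, and each library left out. Within the Sox9 fractions, same-numbered High and Low samples deviated together (correlations 0.229 to 0.445), so these are taken as paired by number; this comes from the data, as the labels only share a code. No replicate pair agreed within sampling noise (smallest chi-square per degree of freedom 36.4). The fits were also run on simulated libraries, in which an entry had the same mean level in all populations apart from planted changes. The real populations differ more than that, and the outcome is not given here.

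The members, lists and tests were chosen with earlier results of these data known. All members are described, and up to 4 called members per comparison get full statistics.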

Additional observations from a re-analysis of the deposited data

Results flagged for a closer look

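Among 72 sets of 4 to 10 libraries (a member in a population), 4 held a library far from the others of its population, where chance gives about 1 in 20. Of the 4, 3 were in Sox9 Low library 3, whose labels hold HFD. There miR-30d-5p was 50778, above the next value of 41836, miR-30b-3p was 1038, above 432, and miR-30a-3p was 530, below 874. The fourth was miR-30d-3p in goblet library 3, at 49.6 where the other goblet libraries are listed at 0. In those libraries 10 reads were worth 41.8 to 63.5, against 31.0 in goblet library 3, and lower values are listed at 0. The count of 4 in 72 is near the share that chance gives. It is not read as a result, and whether anything sets these libraries apart was not tested.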

How the results depend on the processing

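No called member changed direction under any alternative, and 2 of 17 calls held under all of them: miR-30b-3p in Lgr5 High and miR-30b-5p in Paneth cells, each against the other populations. Counts of called members (rows, so that miR-30c-5p counts in both copies) moved by over 1.5 times as follows, and except where a library was removed the cause was not tested. With one library total they were 2 in Sox9 Negative, 1 in Sox9 High, 6 in Paneth, 2 in goblet and 0 in tuft cells against the others, 4 for Sox9 High against Negative and 9 for Paneth against goblet. This scaling moved the median of all entries from -0.06 to -0.25 in Sox9 Negative cells, from -0.13 to -0.28 in goblet cells and from 0.00 to 0.17 for Paneth against goblet. Without the floor they were 0 in Sox9 Low, 1 in Lgr5 High, 1 in CD24Low and 6 in tuft cells, 0 for Sox9 High against Low, 1 for Sox9 Low against Negative, 1 for goblet against tuft and 0 for Lgr5 High against CD24Low. With a floor of 200 they were 0 in Sox9 Low, 1 in Lgr5 High, 1 in Paneth and 0 in goblet cells, and 1 each for Sox9 Low against Negative, Paneth against goblet and Lgr5 High against CD24Low. With edgeR and TMM they were 1 in Sox9 High, 1 in Lgr5 High, 0 in goblet and 3 in tuft cells, 0 for Sox9 High against Low and against Negative, and 1 each for Sox9 Low against Negative, goblet against tuft and Lgr5 High against CD24Low. With DESeq2 size factors they were 1 in Sox9 High, 1 in Lgr5 High, 0 in goblet and 2 in tuft cells, 0 for Sox9 High against Low, and 1 each for Sox9 Low against Negative, Paneth against goblet and Lgr5 High against CD24Low. Without Sox9 sample number 3 they were 0 in Sox9 Low and goblet cells and for Sox9 High against Low, and 1 for Sox9 Low against Negative. With Paneth libraries 5 and 6 alone they were 1 for both Paneth comparisons. In earlier work on these data, fits without the floor gave many false calls in simulated libraries, and shallow libraries list low members at 0. Apart from the common total, the share of all entries called under these alternatives is not given here. Those counts are therefore not read as results about the family.

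Leaving out each library in turn gave 1 to 1 calls in Sox9 Negative, 0 to 1 in Sox9 Low, Sox9 High and goblet, 1 to 2 in Lgr5 High, Paneth and tuft and 0 to 0 in CD24Low cells. Between pairs it gave 0 to 1 for Sox9 High against Low, 1 to 2 for High against Negative (1 without Sox9 Negative library 1 or 2), 1 to 3 for Low against Negative (3 without Sox9 Negative library 2, and 1 without Sox9 Negative library 3 or 4 or Sox9 Low library 3), 2 to 2 for Paneth against goblet, 0 to 0 for goblet against tuft and 1 to 2 for Lgr5 High against CD24Low. In tuft cells leaving out tuft library 3 gave 2, and in Sox9 High cells leaving out library 4 gave 1. The number of differing ratios ran from 0 to 40, because 3 libraries against 4 cannot give p under 0.0571. With the replicate block for Sox9 High against Low, chosen after seeing the data, it was 38. With the replicate block on the Sox9 sample numbers, 2 members were called for Sox9 High against Negative, 2 for Low against Negative and 1 for High against Low, as without it, and no other call changed; High and Negative (correlations 0.0403 to 0.219) and Low and Negative samples (-0.248 to 0.471) share a number and a code in their column names, but did not all deviate together. Depth limits the 3p arms in goblet and tuft cells, where 10 reads can exceed their values.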
